A study of Mus musculus with 4 samples.

Results

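The enzymes that write, keep and erase cytosine methylation in DNA were followed in mouse embryonic stem (ES) cells in which fibrillarin (FBL) was knocked down. The group was defined by name as Dnmt1, Dnmt3a, Dnmt3b, Dnmt3l, Tet1, Tet2, Tet3, Uhrf1 and Tdg, 9 genes in all. A probe belonged to it where the RefSeq transcript that the scanner files give for the probe was a transcript of one of these genes. This gave 12 of 41174 probes, for 7 of the 17016 genes named on the array. Dnmt3a had 3 probes, Tet2, Uhrf1 and Tdg had 2 each, and Dnmt1, Dnmt3b and Dnmt3l had 1 each. No probe was matched to Tet1 or Tet3, which were not analysed here.

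RNA was measured on Agilent 1-colour arrays, with 1 array for each of 4 samples. The 2 FBL-kd samples were ES cells of a Tc-inducible FBL-kd line cultured for 2 days without Tc. The 2 control samples were cells of the same line kept with Tc at 1000 ng/mL for those 2 days. Both groups therefore carried the inducible system, and both were grown with leukaemia inhibitory factor (LIF) on gelatin-coated dishes. The culture medium differed in Tc itself as well as in FBL, and the effects of these cannot be told apart in this design. The labels do not say whether samples of a group came from separate cultures, so the p-values reflect only how far these samples differ, and that spread may be technical. The sources used here do not name the parent line, its number of clones or the promoter.

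In mammalian DNA, cytosine is methylated mainly at CpG dinucleotides. DNMT3A and DNMT3B set new methyl groups, DNMT1 copies the pattern to the new strand after replication with the help of UHRF1, and the TET enzymes oxidise 5-methylcytosine so that TDG and base excision repair can restore plain cytosine. In mouse ES cells the balance of these activities is known to shift between the naive state, which resembles the preimplantation epiblast and has little DNA methylation, and the primed state, which has much more. FBL is a nucleolar methyltransferase of ribosomal RNA and is not itself an enzyme of DNA methylation.

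The start regions of Dnmt3a and Tet2 are shown because these genes had the highest and the lowest change among the members. All sequences are from RefSeq (GRCm38.p6), 5′ to 3′ on the strand of the gene. Each of these 3 windows holds the 250 bases before an annotated transcript start, with every CpG in capitals.
Dnmt3a, chr12:3806730-3806979 (+): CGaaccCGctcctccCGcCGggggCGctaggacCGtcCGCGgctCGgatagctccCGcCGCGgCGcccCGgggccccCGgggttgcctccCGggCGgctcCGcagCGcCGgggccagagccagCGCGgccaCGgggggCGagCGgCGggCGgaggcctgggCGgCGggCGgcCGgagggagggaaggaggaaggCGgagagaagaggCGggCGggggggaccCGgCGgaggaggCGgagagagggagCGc
Dnmt3a, chr12:3891494-3891743 (+): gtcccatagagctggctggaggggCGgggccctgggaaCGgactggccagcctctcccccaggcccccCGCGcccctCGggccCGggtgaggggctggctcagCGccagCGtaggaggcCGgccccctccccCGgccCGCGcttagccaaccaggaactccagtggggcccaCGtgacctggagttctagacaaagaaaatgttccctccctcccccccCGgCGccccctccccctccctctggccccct
Tet2, chr3:133544391-133544640 (−): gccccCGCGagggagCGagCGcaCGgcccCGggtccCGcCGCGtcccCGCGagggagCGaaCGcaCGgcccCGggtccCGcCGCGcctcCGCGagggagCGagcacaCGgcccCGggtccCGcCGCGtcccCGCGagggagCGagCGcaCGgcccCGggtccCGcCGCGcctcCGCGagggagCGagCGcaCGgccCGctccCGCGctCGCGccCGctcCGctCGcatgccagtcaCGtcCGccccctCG
The upstream Dnmt3a window held 38 CpGs, more than 98.1% of the 32851 RefSeq start windows of this length. The downstream one held 15, more than 72.7% of them. Another Dnmt3a window, which overlaps the upstream one and is not shown, held 40 CpGs, more than 98.7% of windows. The Tet2 window held 51 CpGs, more than 99.9% of windows. The median window held 6.

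The 9 genes had 16 such windows, and they were unlike each other in CpG content. The Dnmt3b window held 21 CpGs and the Tdg window 19, whereas the Dnmt3l windows held 3 to 5. The GC box (GGGCGG on either strand) was found in 11 of the 16 windows and in 32.7% of all windows. CCAAT on either strand was found in 6, against 33.8% of all windows, and TATAAA on either strand in 0, against 12.4%. An E2F motif, TTTCGCGC or TTTGGCGC on either strand, was found in 2 of the 16 windows and in 0.654% of all windows. These 2 matches, shown because they lie before starts of the maintenance pair Dnmt1 and Uhrf1, stand in capitals within 30 bases.
Dnmt1, chr9:20952824-20952853 (−): ggtttccgcgcGCGCGAAAaagccggggtc
Uhrf1, chr17:56304117-56304146 (+): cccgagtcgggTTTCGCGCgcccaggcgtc
The Dnmt1 match lay 211 bases before an annotated start of Dnmt1, and the Uhrf1 match 177 bases before an annotated start of Uhrf1. Both genes also have an annotated start upstream of the match. These matches describe letters in a window and were not set against binding data.

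Levels are the deposited log2 values, each relative to the 75th percentile of its array, so a level of 0 lies at that percentile. Levels of different probes are not comparable with each other, and changes are FBL-kd minus control on the log2 scale. The test took in the 25077 probes whose signal was flagged well above background on both FBL-kd arrays, on both control arrays, or on all 4. All 12 member probes were well above background on all 4 arrays. A probe was called where limma's adjusted p was under 0.05 (Benjamini-Hochberg over all probes tested), and error terms after ± are standard errors of the limma fit with n = 2 per group. The arrays detected 26403 and 24495 probes well above background in FBL-kd 1 and 2, and 25068 and 25940 in controls 1 and 2. FBL-kd 2 was alone on its slide and the other 3 samples shared another, so within 1 slide the comparison held 1 FBL-kd sample. The log2 difference between the FBL-kd samples had an SD of 0.31 across the tested probes, and that between the controls had an SD of 0.51. The targeted gene bore out the labels: Fbl (A_51_P349142) had levels of 5.98 and 5.94 in FBL-kd samples, against 8.63 and 8.12 in controls. Fbl fell by 2.41 ± 0.25 on the log2 scale, 5.32-fold lower in FBL-kd, with an adjusted p of 4.42e-04 in limma.

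No member passed the test. Of the 12 member probes 0 were called, against a background of 6.2% of all probes tested (3.73% rising and 2.47% falling), so a count of 0 among 12 lies near the background. Their median change was −0.20, beside a median of −0.06 over all probes tested. The 3 Dnmt3a probes were higher in FBL-kd and the other 9 were lower, whereas 55.9% of all tested probes had a change below 0. An unadjusted p under 0.05 was reached by 2 of the 12 members, 1 probe of Dnmt3a and 1 of Tet2, and by 20.1% of all probes. Without control 1 the change was 0.91 at Dnmt3a A_52_P76146, and −1.12 and −0.73 at Tet2 A_51_P340083 and A_52_P502083. Without control 2 these changes were 0.58, −0.36 and −0.24. In bulk RNA, fewer cells of a type and less RNA per cell cannot be told apart.

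**Figure D1:**
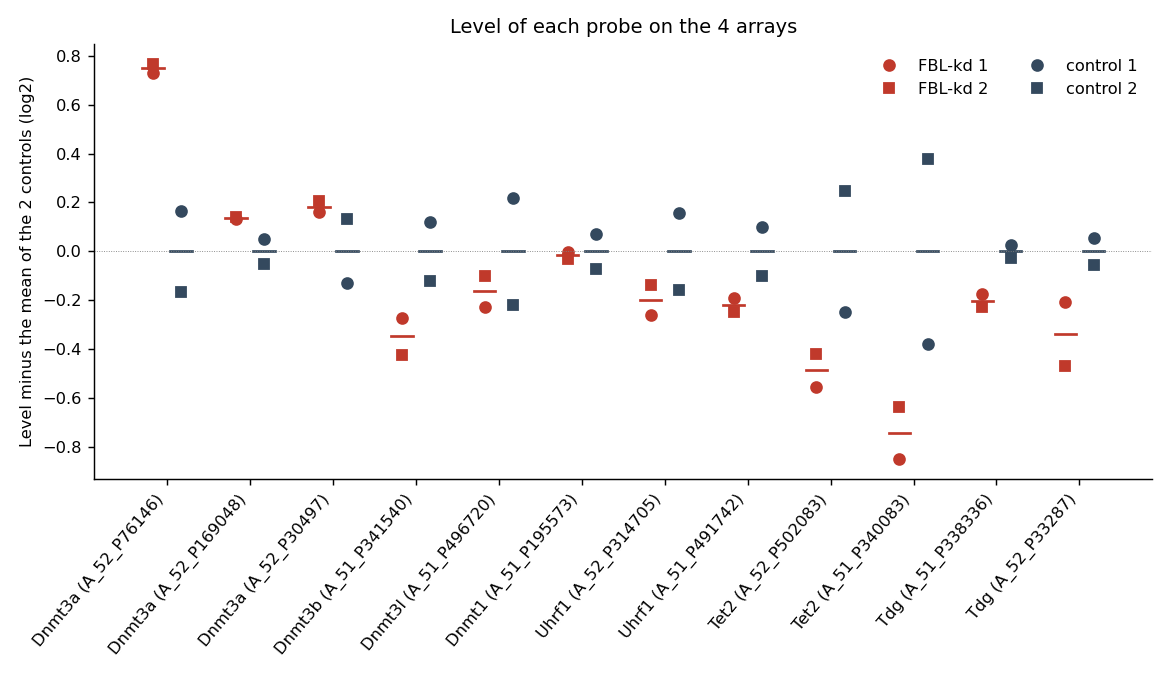
Log2 level of each member probe on each of the 4 arrays, minus the mean of the 2 controls for that probe (y axis), with a dash at each group mean. FBL-kd points (left of each pair) lie above both controls for the 3 Dnmt3a probes and below both for 6 others.

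Dnmt3a, which encodes a de novo DNA methyltransferase, was higher in FBL-kd samples at the probe A_52_P76146. The levels were 3.49 and 3.53 in FBL-kd samples, against 2.93 and 2.60 in controls. Both FBL-kd values lay above both controls, and the gap between the groups was wider than the range within each of them. The change was 0.75 ± 0.23 on the log2 scale (1.68-fold higher, 95% interval 0.23 to 1.27), with a p of 0.00924 and an adjusted p of 0.0971 in limma, which did not pass. A change as high was seen in 6.25% of all tested probes.

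The other Dnmt3a probes name the same transcript (NM_007872) and showed smaller differences. At A_52_P169048 the levels were 2.29 and 2.30 in FBL-kd samples, against 2.21 and 2.10 in controls. At A_52_P30497 they were −2.14 and −2.10 in FBL-kd samples, against −2.43 and −2.17 in controls. The groups did not overlap at either probe, but the changes of 0.14 (95% interval −0.36 to 0.63) and 0.18 (−0.33 to 0.69) lay within the error of the fit. Taken within each array, the log2 difference of A_52_P76146 minus A_52_P169048 was 1.20 and 1.23 in FBL-kd samples, against 0.72 and 0.50 in controls. It was thus 0.61 larger in FBL-kd, with groups that did not overlap, while A_52_P169048 minus A_52_P30497 differed by −0.05 with groups that overlapped. An exact two-sided permutation test over 2 against 2 samples cannot go below 0.333, which is the p of the first of these differences. Of such differences between member probes 16 were computed, and none could pass a threshold of 0.05. The 3 probes thus gave unequal changes for 1 transcript, and the files do not say where in it each probe lies.

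Dnmt3b, the other de novo methyltransferase, had lower levels in FBL-kd samples, within the error of the fit. Its levels were 4.24 and 4.09 in FBL-kd samples, against 4.63 and 4.39 in controls. Both FBL-kd values lay below both controls, and the change of −0.35 ± 0.23 (95% interval −0.86 to 0.17) was not called, with an adjusted p of 0.453 in limma. A change as low was seen in 21.6% of all tested probes. Within each array, Dnmt3a (A_52_P76146) minus Dnmt3b was −0.75 and −0.55 in FBL-kd samples, against −1.70 and −1.79 in controls. This difference was 1.09 larger in FBL-kd, and the exact permutation p was again 0.333, the smallest that 4 samples allow. With the other Dnmt3a probes in its place it was 0.48 and 0.53 larger, and the groups again did not overlap. Groups also did not overlap for a difference as small as that between the Tdg probes, 0.14. No background over all probes was computed for such differences, so the lack of overlap says little here.

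Dnmt3l, a partner without catalytic activity that stimulates de novo methylation, was detected on every array. The levels were 6.85 and 6.97 in FBL-kd samples, against 7.29 and 6.85 in controls. Control 1 lay above both FBL-kd samples and control 2 lay within 0.01 of FBL-kd 1, so the groups overlapped. The change was −0.16 (95% interval −0.70 to 0.38) and turned to 0.06 without control 1.

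Dnmt1, the maintenance methyltransferase, had the change closest to 0 of all members. The levels were 3.31 and 3.28 in FBL-kd samples, against 3.38 and 3.24 in controls. The FBL-kd values lay between the controls, and the change of −0.02 (95% interval −0.51 to 0.48) was positive in 4 of 13 distinct alternative fits. The interval leaves room for a difference of up to about 0.5 on the log2 scale in either direction.

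Uhrf1 encodes the protein that binds hemimethylated DNA and brings DNMT1 to it, and its 2 probes gave close changes. At A_52_P314705 the levels were 4.70 and 4.82 in FBL-kd samples, against 5.11 and 4.80 in controls. At A_51_P491742 they were 3.74 and 3.68 in FBL-kd samples, against 4.03 and 3.83 in controls. The groups overlapped at the first probe and not at the second, with changes of −0.20 (95% interval −0.72 to 0.32) and −0.22 (−0.72 to 0.28). Within each array, Dnmt1 minus Uhrf1 differed by 0.18 between the groups.

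Tet2, the TET dioxygenase with probes here, was lower in FBL-kd samples at both of them. At A_51_P340083 the levels were −3.78 and −3.56 in FBL-kd samples, against −3.31 and −2.55 in controls. At A_52_P502083 they were −2.94 and −2.81 in FBL-kd samples, against −2.64 and −2.14 in controls. The groups did not overlap, but the controls lay 0.75 apart at the first probe and 0.49 apart at the second, and control 2 was the higher one at both. The change at A_51_P340083 was −0.74 ± 0.28 (1.67-fold lower, 95% interval −1.37 to −0.11), with a p of 0.0249 and an adjusted p of 0.171 in limma. A change as low was seen in 5.56% of all tested probes. The change at A_52_P502083 was −0.49 ± 0.25 (95% interval −1.04 to 0.07), with an adjusted p of 0.314 in limma.

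The Tet2 values differed between processing settings. Without control 1 the changes were −1.12 at A_51_P340083 and −0.73 at A_52_P502083. Without control 2 they were −0.36 and −0.24. With normexp on the median signal, an offset of 50 and quantile normalization, changed together, they were −0.13 and −0.20. With quantile normalization of the deposited values alone they were −0.73 and −0.49. Beside the offset of 50, the processed signals lay between 42.3 and 136 at A_51_P340083. At A_52_P502083 they lay between 71.5 and 181. Normexp and its offset were not tried apart from quantile normalization, and their part was not tested.

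Tdg encodes the glycosylase that cuts out the oxidised bases made by TET enzymes, and its 2 probes name different transcripts. At A_51_P338336 (NM_172552) the levels were 3.63 and 3.58 in FBL-kd samples, against 3.83 and 3.78 in controls. At A_52_P33287 (NM_011561) they were 1.74 and 1.48 in FBL-kd samples, against 2.00 and 1.89 in controls. Both FBL-kd values lay below both controls at each probe, yet the changes of −0.20 (95% interval −0.69 to 0.29) and −0.34 (−0.85 to 0.18) were not called.

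**Figure D2:**
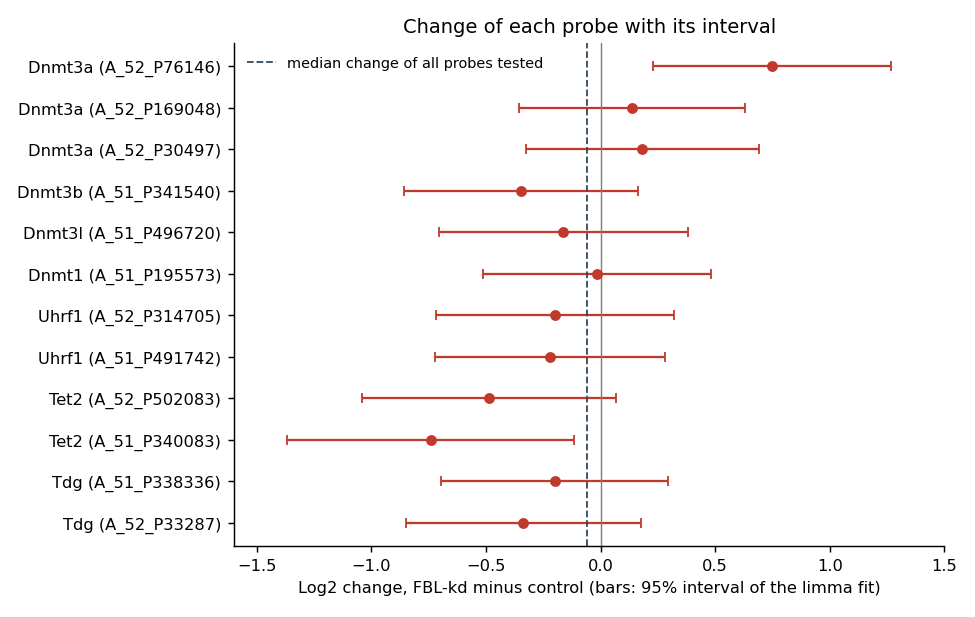
Log2 change of each member probe, FBL-kd minus control (x axis), with the 95% interval of the limma fit and a dashed line at the median change of all probes tested. The intervals of Dnmt3a A_52_P76146 and Tet2 A_51_P340083 exclude 0 before adjustment, and the other 10 include it.

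The precision of 2 arrays per group set what could be seen. The standard errors of the members lay between 0.22 and 0.28 and the half-widths of their 95% intervals between 0.49 and 0.63, while the smallest change called among all probes was 0.86. The groups did not overlap at 9 of the 12 member probes, against a background of 51.4% of all tested probes. Of the 9, 3 were higher in FBL-kd, all of them probes of Dnmt3a, and 6 were lower, against 20.8% and 30.6%. Taken at the brightest probe of each gene, the groups did not overlap at 4 of 7 member genes, against 51.2% of all genes. The change exceeded the range within each group at 6 of the 12 member probes, against 36.9% of all tested probes. Control 1 lay above control 2 at 9 of the 12, against 59.8%, and the controls lay farther apart than the FBL-kd samples at 10 of the 12.

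**Figure D3:**
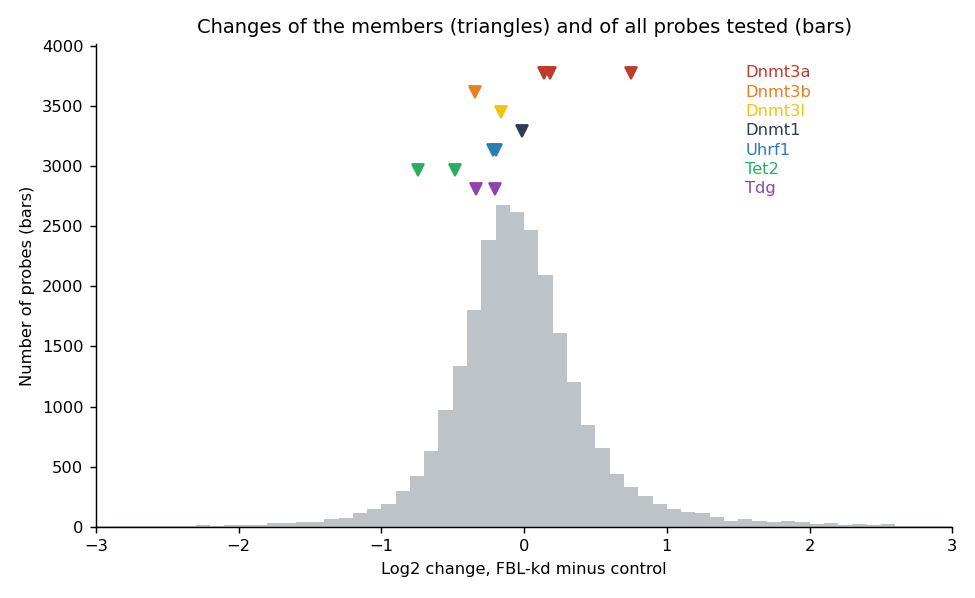
Number of tested probes (bars, y axis) by log2 change, FBL-kd minus control, in steps of 0.1 between −3 and 3 (74 probes lie outside), with the 12 member probes as triangles whose height has no meaning. Dnmt3a A_52_P76146 and Tet2 A_51_P340083 lie on opposite shoulders and the other 10 nearer the centre.

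The change of Dnmt3a at A_52_P76146 kept its sign under all 14 alternatives, which are 13 distinct fits because slide as a block equals leaving out FBL-kd 2, and lay between 0.58 and 0.91. In limma it was called with normexp background correction and quantile normalization (0.81, adjusted p = 0.00734), where 1482 of 25077 probes were called. It was also called with a variance trend (adjusted p = 0.0270) and a trend with robust fitting (adjusted p = 0.0118). The fits with a trend called more probes of all kinds, 2302 and 2652, against 1556 as reported. Without control 1 the change was 0.91. Within the slide shared by FBL-kd 1 and both controls, the change was 0.73 for this probe, with its highest adjusted p, 0.919, and −0.85 and −0.55 for the Tet2 probes. Over all 12 probes the distinct fits gave 156 values, of which 5 changed sign, all of them of Dnmt1 or Dnmt3l.

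**Figure D4:**
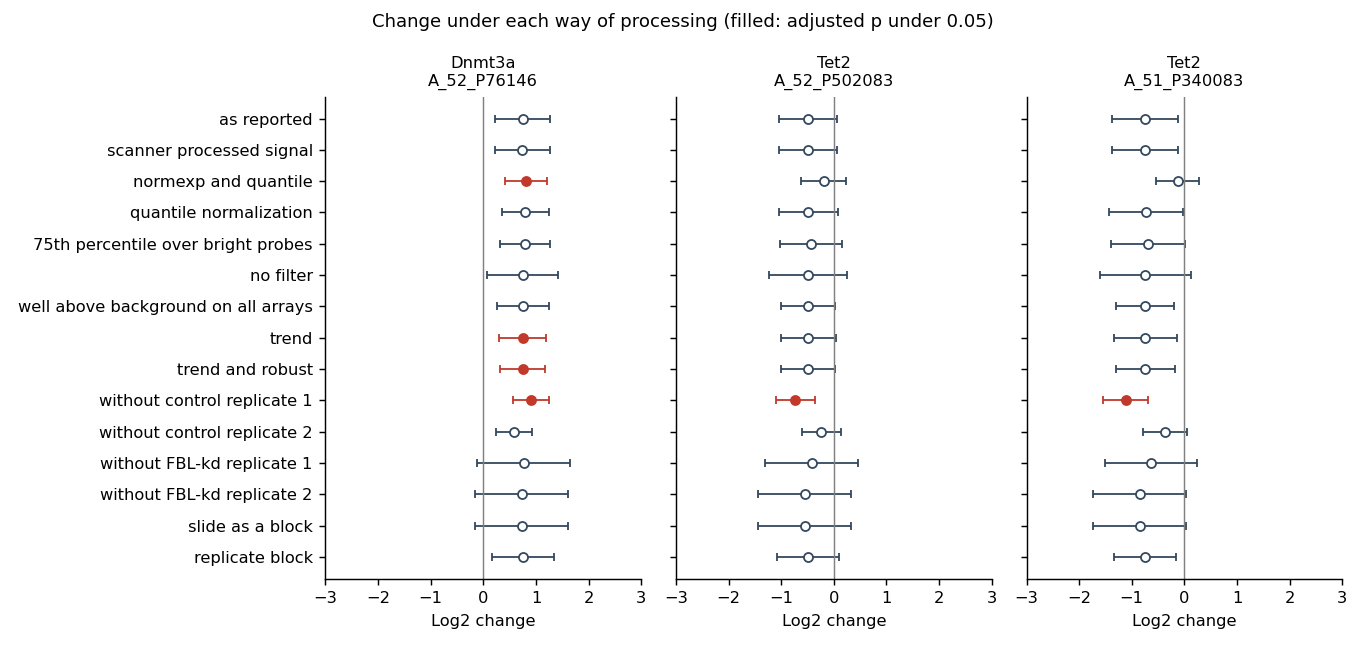
Log2 change, FBL-kd minus control, of the Dnmt3a probe and the Tet2 probes with the changes farthest from 0, as reported and under 14 alternatives (slide as a block is the same fit as without FBL-kd replicate 2), with 95% intervals of limma and filled points where the adjusted p was under 0.05. The Dnmt3a points all lie above 0 and the Tet2 points all below it, and the Tet2 points lie lowest without control 1 and highest with normexp and quantile normalization.

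Among all 12623 named genes compared, those whose 4-sample profile lay nearest to that of Dnmt3a at A_52_P76146 were Drc7, Tmem42 and Fzd10, a Wnt receptor. The Euclidean distances between the centred log2 profiles were 0.0183, 0.0244 and 0.0272, and the changes were 0.74, 0.73 and 0.76. None of these genes was called, and 4 samples give little to tell profiles apart.

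The wider machinery of DNA methylation was taken from 5 lists of 77 genes in all, of which 70 were tested at the brightest probe of each gene. Of these, 0 rose and 1 fell, against 3.92% rising and 2.58% falling (6.51% in all) among all 19338 genes at their brightest probe, where an accession without a gene name counts as a gene. Their median change was −0.14, against −0.06 over all genes. All 15 tested genes of the list named writers and maintenance partners were lower in FBL-kd, against 55.8% of all genes. The list also holds Trdmt1 and Dppa3, and the role of each gene in DNA methylation was not assessed. The median of the 15 was −0.31, with changes between −0.72 and −0.04. None passed the test, and the groups did not overlap at 7 of them, against a background of 51.2%. The 2 brightest were Trim28, the KRAB zinc finger corepressor, at −0.10 (adjusted p = 0.882 in limma), and Ehmt2, the histone H3 lysine 9 methyltransferase G9a, at −0.35 (adjusted p = 0.527). Trim28 was 0.23 without control 1, so the shared direction of the 15 did not hold in that fit. Ehmt2 was −0.71 without control 2 and −0.0022 without control 1. Cdca7l and the PCNA-binding Pclaf, chosen after their values were seen, had the lowest changes, −0.72 and −0.64, and were not called.

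The 7 tested genes of the list named methyl-CpG readers had a median change of 0.21, with 5 higher and 2 lower and none called. Whether each of them binds methylated DNA was not assessed. Mbd3, a subunit of the NuRD complex, had 0.28 and Mbd6 had 0.15 at its brightest probe, with groups that overlapped. Mbd3 was 0.66 without control 1, and −0.11 without control 2. The 19 genes of demethylation and base excision had a median of 0.11, with 11 higher and 8 lower and none called. Hmces, which shields abasic sites in single-stranded DNA, had −0.52 and −0.57 at its 2 probes, and the abasic endonuclease Apex1 had 0.07. Without control 2, Hmces was −0.78 at its brightest probe, and without control 1 it was −0.25. The 12 tested partners and regulators of TET enzymes had a median of −0.27, with 7 lower and 5 higher and none called. The groups did not overlap at 9 of them, against 51.2% of all genes. Sall4, a zinc finger factor of ES cells, had −0.22 at its brightest probe and 0.23 at the other. Idh3a, a subunit of the enzyme that supplies the TET cosubstrate 2-oxoglutarate, had −0.59, or −0.81 without control 1 and −0.37 without control 2.

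In the cycle that makes S-adenosylmethionine, the methyl donor, 13 of 17 tested genes were lower, against 55.8% of all genes, with a median of −0.22. The groups did not overlap at 14 of the 17, against 51.2% of all genes. The 1 pathway gene that fell belongs to this list. Bhmt, an enzyme of homocysteine remethylation and chosen after its values were seen, had levels of −2.83 and −4.73 in FBL-kd samples, against −5.47 and −5.55 in controls. Its FBL-kd samples lay 1.90 apart, and the change of 1.72 ± 0.48 was not called (adjusted p = 0.0646 in limma). The change was 2.67 without FBL-kd 2 and 0.77 without FBL-kd 1.

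Genes whose own silencing is known to rest on DNA methylation were read beside the enzymes. Of 22 tested germline genes, 18 of them well above background on all arrays, 1 rose and 1 fell, with a median change of −0.02. Among all genes 3.92% rose and 2.58% fell, so these counts lie near the background. DNA methylation itself was not measured. Hormad1, which encodes a meiotic chromosome axis protein, had levels of −2.09 and −1.98 in FBL-kd samples, against −3.74 and −3.11 in controls. It rose by 1.39 ± 0.26 (adjusted p = 0.0117 in limma), or by 0.76 with normexp and quantile normalization, and its other probe was not well above background on any array. Magea4, an X-linked gene of the cancer-testis family, was well above background on both controls and on neither FBL-kd array. It was at least 8.69-fold lower in FBL-kd, measured against the lowest signal that counts as above background, and its change was −1.03 with normexp, an offset of 50 and quantile normalization. Magea4 entered the test through the controls alone, and with detection required on all arrays 1 germline gene was called.

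Of 35 tested imprinted genes 2 rose and 2 fell, with a median change of −0.01, against the same background of 3.92% rising and 2.58% falling. Counts this small lie near the background. Sgce, the maternally imprinted epsilon-sarcoglycan gene, had levels of 1.92 and 1.81 in FBL-kd samples, against 0.49 and 0.41 in controls, and rose by 1.42 ± 0.22 (adjusted p = 0.0043 in limma). Its other probe rose by 1.45. Peg3, a paternally expressed zinc finger gene, rose by 0.90 ± 0.23 at one probe (adjusted p = 0.0482 in limma) and by 1.20 at the other. The Peg3 change was 0.51 and not called with normexp and quantile normalization. Grb10, an adaptor that restrains insulin signalling, had levels of 2.25 and 2.05 in FBL-kd samples, against 3.60 and 3.67 in controls. It fell by 1.49 ± 0.23 (adjusted p = 0.0035 in limma), and its other 2 probes fell by 1.62 and 1.59. Mcts2, a retrogene imprinted within an intron of another gene, fell by 0.96 ± 0.23 (adjusted p = 0.0340 in limma). Without FBL-kd 1 the calls of Sgce, Peg3 and Mcts2 ended at changes of 1.37, 0.97 and −1.02. Without FBL-kd 2 those of Hormad1, Peg3, Grb10 and Mcts2 ended at 1.34, 0.84, −1.39 and −0.89. The changes were thus about as large as with all samples, and the standard error in the fit without FBL-kd 2 was 0.45.

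**Figure D5:**
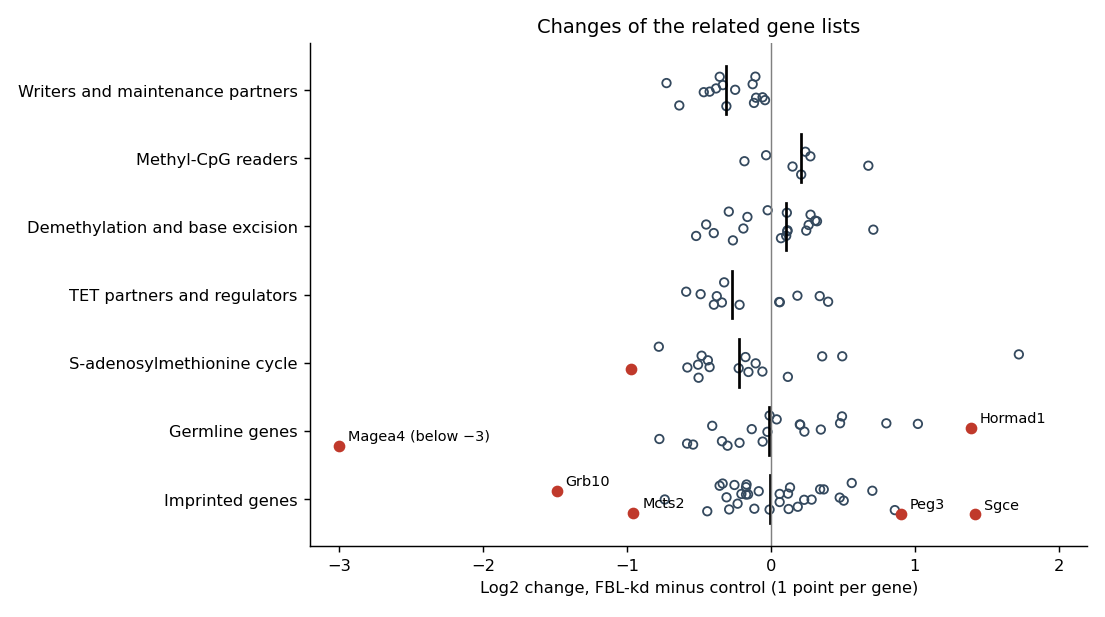
Log2 change, FBL-kd minus control, of each tested gene of the 7 related lists at its brightest probe (x axis), with filled points where the adjusted p was under 0.05 and a bar at each list's median. All points of the writers and maintenance partners lie below 0 and none of them is filled, while the filled imprinted genes lie on both sides of 0.

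The labelled cell type was checked against its markers, because levels of these enzymes are known to differ between states of pluripotency. All 12 ES cell markers were well above background on every array and none was called, with 8 lower and 4 higher in FBL-kd and Nanog at −0.82 (adjusted p = 0.060 in limma). Their summed level on the linear scale was 918 and 1188 in FBL-kd samples, against 1107 and 911 in controls. Such a sum is led by the brightest probe, here Dppa5a with 57.0% to 72.1% of it. Of 7 tested markers of the naive state, 4 fell (Klf5, Nr0b1, Tbx3 and Tfcp2l1), and the summed level was 209 and 217 in FBL-kd samples, against 314 and 253 in controls, with Klf2 at 57.7% to 74.0% of it. Of 9 markers of the primed epiblast 6 were tested, of which 5 rose (Fgf5, Lef1, Otx2, Pou3f1 and Sall2) and Zic2 fell. Fgf5 was well above background on both FBL-kd arrays and on 1 control array, so it entered through the group where it is high, and Zic2 had levels of −4.73 and −4.89 in FBL-kd samples, against −3.68 and −1.52 in controls. The summed level of the 9 was 33.0 and 34.4 in FBL-kd samples, against 13.7 and 10.3 in controls, with Pou3f1 at 85.9% to 90.9% of it, and Cer1 was not well above background on any array. The part of these marker differences in the member differences was not tested.

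Markers of other lineages were summed in the same way. The 7 trophectoderm markers had a summed level of 24.9 and 21.2 in FBL-kd samples, against 14.2 and 12.0 in controls, with Tfap2c, which was not called, at 97.4% to 97.9% of it. Krt7 rose and Elf5 fell, and Elf5 was well above background on both controls and on 1 FBL-kd array, so it entered through the group where it is high. The 8 primitive endoderm markers had 0.948 and 0.941 in FBL-kd samples, against 1.56 and 1.07 in controls, with 0 rising and 1 falling. Amn made up 61.6% to 67.3% of this sum. The 7 fibroblast markers had 3.61 and 3.93 in FBL-kd samples, against 7.15 and 4.59 in controls, and none was called. Thy1 made up 80.9% to 89.7% of this sum, and of the 4 tested markers 1 was lower and 3 were higher. The 5 neural markers had 7.70 and 8.97 in FBL-kd samples, against 11.9 and 7.55 in controls, with none called. Tubb3 made up 87.7% to 93.1% of this sum. The 5 mesoderm markers had 0.596 and 0.589 in FBL-kd samples, against 0.552 and 0.479 in controls, with 1 rising. Tbx6 made up 35.6% to 48.1% of this sum. Pdgfra, Col3a1 and Postn were not well above background on any array.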

How the data were processed

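RNA of 4 samples was measured on 1 Agilent array each. Per the file headers and the submitters' processing notes, image reading used Agilent Feature Extraction 10.7.3.1. The deposited intensity of each spot is its processed signal. The deposited value table holds log2 values, and 99.8% of them equalled the log2 of that signal, shifted by 1 constant per array, to a tolerance of 0.01. Its medians were −3.94 and −3.91 for FBL-kd, against −3.85 and −3.98 for controls, its 75th percentiles lay at about 0, and its probes were not centred. Of its 41267 entries, 41174 matched a probe, and 50 probes with every spot flagged as an outlier were dropped.

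The files hold no gene names. RefSeq accessions were matched to GRCm38.p6, which named 24375 probes and left 16799 without a name. Array coordinates were not used, since the design refers to another build.

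Groups were compared with limma 3.58.1 (lmFit, eBayes, two-sided) in R 4.3.3, over all probes tested, after a check on simulated data. Summed levels are sums of linear values at each gene's brightest probe. Alternatives covered the scanner signal, normexp (offset 50, on the median signal because no mean signal is held), normalization, filters, averaging of probes, the variance model, slide, replicate number as a block, and leaving out each sample. Deviations of samples with the same replicate number correlated at 0.02, so numbers were not taken to pair samples.

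Members and lists were chosen with earlier results of these data known. Named genes are the members, Fbl, the called genes of each list with the largest changes (up to 3 per direction), otherwise its 2 brightest genes, and the 3 genes with profiles nearest to the member with the smallest adjusted p. The called gene of the S-adenosylmethionine cycle is not reported here.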

Additional observations from a re-analysis of the deposited data

How the results depend on the processing

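Of the 1556 probes called, the count became 0 with no filter on dim probes (3878 had an unadjusted p under 0.05 in limma), 2652 with a variance trend and robust fitting, and 686 with slide as a block, which equals the fit within slide 1. Leaving out 1 sample gave 686 to 5382, the highest without control 1 (3226 without control 2, 966 without FBL-kd 1 and 686 without FBL-kd 2). The 0 member probes became 1 with normexp, with the trend and with the robust trend, and 0 to 3 with 1 sample left out, and the 0 member genes became 1 under the same settings and 0 to 2. The 1 pathway gene became 4 with normexp, 0 with no filter, 2 with detection required on all arrays, 0 with probes averaged, 5 with the trend, 6 with the robust trend, 2 with the replicate block and 0 to 13 with 1 sample left out. The 2 germline genes became 0 with no filter, 1 with detection on all arrays, 1 with the slide block and 1 to 7 with 1 sample left out. The 4 imprinted genes became 0 with no filter, 7 with the robust trend, 1 with the slide block and 1 to 11 with 1 sample left out. Fbl kept its change of −2.41 but not its call with no filter (adjusted p = 0.0997 in limma), and lay between −2.66 and −2.16 with 1 sample left out. Signs turned for Dnmt1 (0.029 with normexp, 0.029 with quantile normalization, 0.036 with the percentile over bright probes), Trim28 (0.013 with normexp) and Sall4 (0.0048 with probes averaged). They also turned with 1 control left out, where the changes lay between −0.086 and 0.055 for Dnmt1, −0.38 and 0.058 for Dnmt3l, −0.44 and 0.23 for Trim28, −0.11 and 0.66 for Mbd3, −0.059 and 0.36 for Mbd6 and −0.13 and 0.27 for Apex1. The causes were not tested. The replicate block called 2289 probes and 0 members, and the replicate numbers are shared only by name. Fits that leave a group with 1 sample take its spread from the other group, so a fit without a control rests on the closer FBL-kd pair. The number of arrays limits the precision.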
